A study of Homo sapiens with 16 samples.

Results

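Gene expression was compared between the control cardiomyocytes of the overexpression experiment and those of the knockdown experiment, measured by RNA-Seq. hiPSC-CMs are beating cardiomyocytes differentiated from human induced pluripotent stem cells, here of the WTC-11 line, and were taken at day 15 to 35 of differentiation. In the overexpression experiment the control cells received a plasmid for bacterial alkaline phosphatase, and in the knockdown experiment they received a scrambled oligonucleotide. Lipofectamine-based transfection, the RNeasy extraction with digestion of DNA, the 1000 ng input and the 11 cycles of amplification were given for both. The 8 libraries, 4 with the control plasmid and 4 with the scrambled oligonucleotide, were chosen by their titles out of 16; the other 8 received LINC00881 plasmid or a GapmeR against LINC00881. All libraries came from the same cell line, and the submitters call them biological replicates without saying what a replicate number stands for, so that p-values measure the spread between these libraries. The groups differed at once in the material transfected, in the experiment and in sequencing depth, and these cannot be told apart here.

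hiPSC-CMs resemble fetal heart muscle more than adult heart muscle. As they mature, they exchange sarcomere isoforms, build the sarcoplasmic reticulum that releases and takes up calcium at each beat, lose pacemaker activity and move from glycolysis toward the oxidation of fatty acids in mitochondria. Transfected nucleic acid can also be sensed by cells, which then switch on interferon-stimulated genes. The comparison of the control groups asked how far such programs, and the RNA content of the libraries, differed before LINC00881 was altered.

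Total counts ran from 9833533 to 13493729 with the control plasmid and from 29279325 to 37033017 with the scrambled oligonucleotide. Of 16232 genes tested with edgeR's quasi-likelihood test, 5150 were higher and 4630 were lower with the scrambled oligonucleotide at a Benjamini-Hochberg adjusted p under 0.05, which is 60.3% of all genes tested (31.7% higher and 28.5% lower). Past a 2-fold change, 2998 were higher and 2648 lower, and for 9344 genes (57.6%) the 4 libraries of either group did not overlap with those of the other. Fold changes are given below on the log2 scale as scrambled oligonucleotide relative to control plasmid, and their median over all genes tested was 0.07. The first principal component, with 67.9% of the variance, separated the groups. The second, with 18.0%, separated scrambled oligonucleotide replicates 1 and 2 from replicates 3 and 4, and 4490 of 19104 genes (23.5%) differed between these pairs of libraries. No label defines the pairs, which were seen in the same libraries. The p-values given below for set differences, 2 libraries against 2, therefore describe this split and are not independent evidence for it. The biological coefficient of variation was 0.104 among the control plasmid libraries and 0.307 among the scrambled oligonucleotide libraries, so results that rest on replicates 1 and 2 or on replicates 3 and 4 alone are pointed out below.

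The same contrast was available in libraries that entered none of these tests, the 4 with LINC00881 plasmid and the 4 with the GapmeR. LINC00881 itself was altered in these libraries in opposite directions. They belong to the same overexpression and knockdown experiments, so material, experiment and depth cannot be told apart there either. Of 15790 genes tested in both contrasts, 9623 were called between the controls and 8982 between the treated libraries (56.5% of all genes tested there), and 7566 were called in both, which is 78.5% of the former and 84.1% of the latter. Among those 7566 genes the direction was the same for 7551 and opposite for 15. Between the controls LINC00881, a long intergenic noncoding RNA at chromosome 3 from 157089881 to 157101135 on the plus strand of GRCh38, measured 81.9, 133, 92.3 and 86.9 CPM with the control plasmid and 133, 157, 58.4 and 58.7 CPM with the scrambled oligonucleotide. The groups overlapped and the difference was not called (log2 fold change 0.05, standard error 0.33, adjusted p = 0.912). The pairs of scrambled oligonucleotide libraries gave opposite calls, 0.60 with replicates 1 and 2 alone (adjusted p = 0.00822) and -0.76 with replicates 3 and 4 alone (adjusted p = 0.000921), and in a fit with offsets for exonic length and base composition, described below, it was called lower at -0.88 (adjusted p = 0.0321).

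Nuclear protein-coding genes, mitochondrial ribosomal RNA and several kinds of short RNA made up different shares of the libraries. Kits for total RNA remove ribosomal RNA, which would otherwise fill most reads. The kit name given for these libraries holds both total RNA and mRNA, and whether both experiments used the same removal step is not stated. MT-RNR2, the 16S ribosomal RNA of the mitochondrial genome, took 0.831, 0.923, 1.005 and 0.914% of counts with the control plasmid and 14.3, 15.8, 13.8 and 14.1% with the scrambled oligonucleotide. Every scrambled oligonucleotide library was thus far above every control plasmid library, with means of 0.918% ± 0.0713 and 14.5% ± 0.901 (SD, n = 4 each; exact permutation test, 2-sided, p = 0.0286, the smallest that 4 against 4 libraries allow; adjusted p = 0.0381 over 16 measures of content). The smaller mitochondrial ribosomal RNA, MT-RNR1, took 0.122% ± 0.00909 with the control plasmid and 0.372% ± 0.106 with the scrambled oligonucleotide (SD, n = 4 each, exact p = 0.0286). The 13 mitochondrial messenger RNAs took 5.09, 4.36, 5.45 and 5.21% with the control plasmid and 7.98, 6.43, 4.63 and 5.43% with the scrambled oligonucleotide. These shares overlapped and did not differ beyond the spread (exact p = 0.229). Mitochondrial transfer RNA was lower with the scrambled oligonucleotide, at 0.0211% ± 0.00135 against 0.0410% ± 0.00695 (SD, n = 4 each, exact p = 0.0286). Nuclear protein-coding genes fell from 92.4% ± 0.491 of counts to 77.2% ± 1.91 (SD, n = 4 each, exact p = 0.0286), and the 10 most abundant genes rose from 7.15% ± 0.206 to 22.1% ± 2.43. Most of these differences went with the mitochondrial share of the total: with mitochondrially encoded genes left out of it, they were -0.61 and 1.15 percentage points (exact p = 0.0286 each), in place of -15.1 and 15.0. The share of long noncoding RNA did not differ beyond the spread (0.778% and 0.728%, exact p = 0.343), and without mitochondrially encoded genes in the total it was higher with the scrambled oligonucleotide by 0.0914 percentage points (exact p = 0.0286). The groups did not overlap for MT-RNR2, its nuclear copies, nuclear protein-coding genes, length or GC content in the plot of library content, and they overlapped for mitochondrial messenger RNA.

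**Figure D1:**
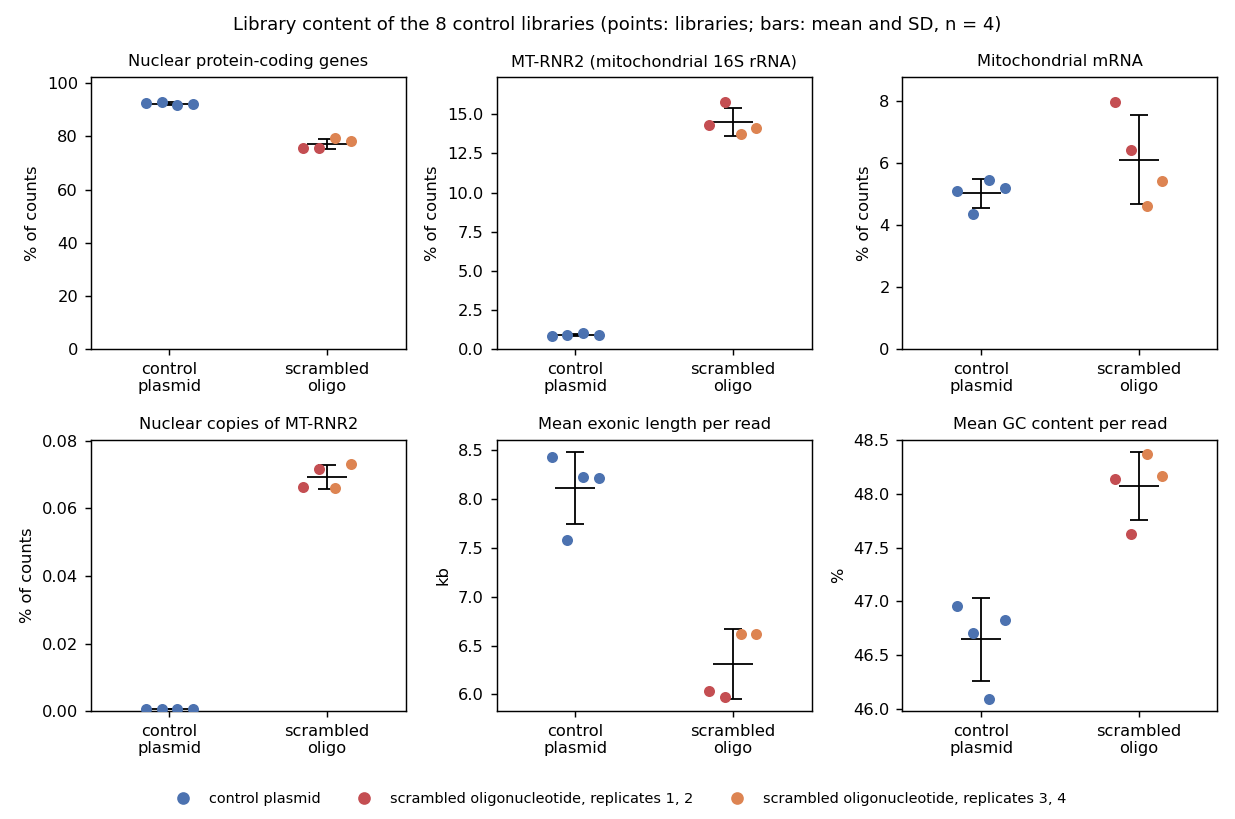
Library content in the 4 control plasmid and 4 scrambled oligonucleotide libraries, with each point a library and the bars the mean and SD. MT-RNR2 took 0.918% of counts on average with the control plasmid and 14.5% with the scrambled oligonucleotide, and the mean exonic length behind a read was 8.11 kb and 6.31 kb.

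Nuclear genes that copy MT-RNR2 were among the largest differences. MTRNR2L12, annotated as a humanin-like gene, measured 5.84, 5.16, 5.11 and 6.87 CPM with the control plasmid and 376, 402, 302 and 343 CPM with the scrambled oligonucleotide. Its transcript matched MT-RNR2 at 95.3% of aligned bases with a longest identical run of 99 bases, so that reads of either cannot be assigned safely and its value is uncertain (log2 fold change 5.95, standard error 0.15, adjusted p = 4.08e-09). MTRNR2L8 (93.2% identity), MTRNR2L1 (89.7%), MTRNR2L6 (86.8%) and MTRNR2L10 (85.2%) were also far higher in all 4 scrambled oligonucleotide libraries, and are uncertain for the same reason. MTRNR2L10 had 0, 0, 0 and 0 reads with the control plasmid and 1771, 2126, 2203 and 1936 with the scrambled oligonucleotide.

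Several RNAs that are short or lack a poly(A) tail were more abundant with the scrambled oligonucleotide, unlike the mitochondrial transfer RNA above. Of 15 small nuclear and polymerase III RNAs listed 4 had enough reads to be tested, and of these 2 were higher and 0 lower. With offsets for exonic length and base composition, described in the next paragraph, 1 was higher and 1 lower. RN7SL1, the RNA of the signal recognition particle, measured 29.3, 19.9, 4.37 and 4.55 CPM with the control plasmid and 265, 280.3, 264 and 256 CPM with the scrambled oligonucleotide. No library of one group reached the range of the other (log2 fold change 4.20, standard error 0.54, adjusted p = 8.75e-05), and control plasmid replicates 1 and 2 lay well above replicates 3 and 4. H4C3, a replication-dependent histone H4 gene whose messenger RNA ends in a stem-loop in place of a poly(A) tail, had 0, 1, 3 and 0 reads with the control plasmid and 3768, 4324, 1725 and 1493 with the scrambled oligonucleotide. It was the protein-coding gene with the largest difference outside the copies of MT-RNR2. Of 20 replication-dependent histone genes listed 13 had enough reads to be tested. Of these 11 were higher and 1 lower with the scrambled oligonucleotide, against 31.7% and 28.5% of all genes, with a median log2 fold change of 0.69. With the offsets the count was 4 higher and 4 lower. A gene can pass the filter on low counts through the group where it is high. The counts of histone genes and of small RNAs are therefore not those of all members. H1-4, a linker histone gene, was at 2.91 and H2BC5, a histone H2B gene, at -0.58. MALAT1, an abundant nuclear long noncoding RNA, measured 138, 211, 159 and 148 CPM with the control plasmid and 507, 501, 1033 and 1100 CPM with the scrambled oligonucleotide, and was higher in every scrambled oligonucleotide library (log2 fold change 2.26, standard error 0.28, adjusted p = 7.48e-05). NORAD and TUG1, long noncoding RNAs of several kilobases, were instead lower, at -2.13 and -2.21 (adjusted p = 7.01e-08 and 1.39e-07).

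Gene length and base composition moved with the comparison across the whole transcriptome. Exonic length here is the merged length of all annotated exons of a gene, over all its transcripts, and can exceed that of the RNA expressed. The mean exonic length behind a read fell from 8.11 ± 0.370 kb to 6.31 ± 0.357 kb, and the mean GC content rose from 46.6% ± 0.387 to 48.1% ± 0.315 (SD, n = 4 each, exact p = 0.0286 for both). Over 13105 protein-coding genes, Spearman's correlation of the log2 fold change was -0.45 with exonic length, -0.41 with coding length, -0.36 with the length of the 3′ untranslated region and 0.30 with GC content. These are descriptions across genes, which are not independent replicates and share the same libraries. In the shortest decile of genes the median log2 fold change was 0.96, with 63.6% higher and 6.79% lower, and in the longest decile it was -0.78, with 8.09% higher and 60.6% lower. The correlation with exonic length was -0.47 with replicates 1 and 2 alone, -0.39 with replicates 3 and 4 alone and -0.50 between the treated libraries. A fit with offsets for exonic length and GC content called 57.8% of 14901 genes. The offsets were fitted on exonic length, so the correlation with it, then -0.03, was brought near 0 by construction. The correlation remained at -0.20 with coding length and -0.16 with the length of the 3′ untranslated region, so the length trend was not fully removed. Of 9157 main calls among the genes in that fit, 6665 (72.8%) were called in the same direction and 214 in the opposite one. Counts with these offsets, in which 32.9% of all genes were higher and 24.8% lower, are therefore given beside the counts of the gene groups below.

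**Figure D2:**
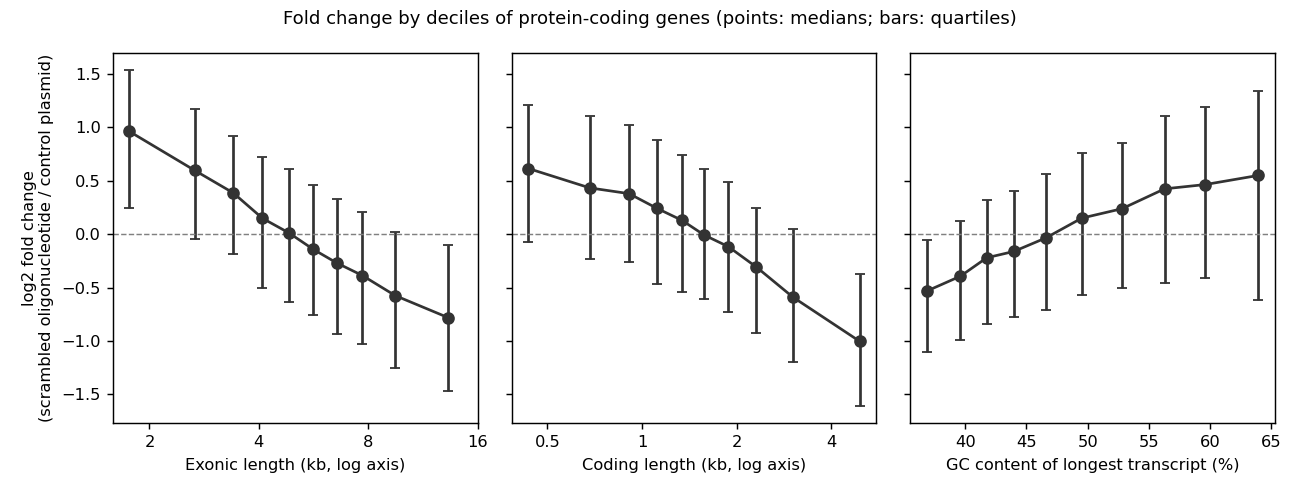
Median log2 fold change (scrambled oligonucleotide relative to control plasmid) over deciles of 13105 protein-coding genes ordered by exonic length, coding length or GC content, with bars from the lower to the upper quartile. The median falls from 0.96 in the decile with the shortest exonic length to -0.78 in the decile with the longest.

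Both groups carried the markers of cardiomyocytes. All 15 cardiomyocyte markers were above 1 CPM in some library of the 8, and their summed level was 31380 to 33540 CPM with the control plasmid and 25960 to 29140 CPM with the scrambled oligonucleotide. Below 1 CPM in all 8 libraries were 5 of 9 pluripotency markers, POU5F1 and NANOG among them, 7 of 9 endothelial markers with PECAM1 and CDH5, 6 of 10 skeletal muscle markers with MYOD1, and 2 of 11 fibroblast markers. Other members of these lists were expressed: the summed level of the tested members was 113 to 125 CPM with the control plasmid and 92.8 to 106 CPM with the scrambled oligonucleotide for pluripotency, 180 to 211 and 59.7 to 98.4 CPM for endothelium, and 189 to 330 and 642 to 977 CPM for skeletal muscle. Most of each sum came from a single gene, TDGF1, KDR and CKM in turn. CKM had 1985 to 4711 reads with the control plasmid and 18112 to 30142 with the scrambled oligonucleotide. For MYH3, of the same list, these were 18 to 27 and 3 to 283 reads. Of the 15 markers, 6 were higher and 6 lower (median log2 fold change 0.11), so that 12 of 15 were called, against 60.3% of all genes. The direction depended on the setting, with 4 higher and 7 lower (median -0.48) under the offsets and 5 higher and 7 lower (median -0.20) between the treated libraries. GATA4 and NKX2-5, transcription factors of the heart field, were higher at 0.67 and 1.80. TNNT2, which encodes cardiac troponin T and shares exonic sequence with LAD1, was lower at -1.21. TBX5 was at 0.11 (adjusted p = 0.684). In bulk RNA, fewer cells of a type and less RNA per cell cannot be told apart.

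**Figure D3:**
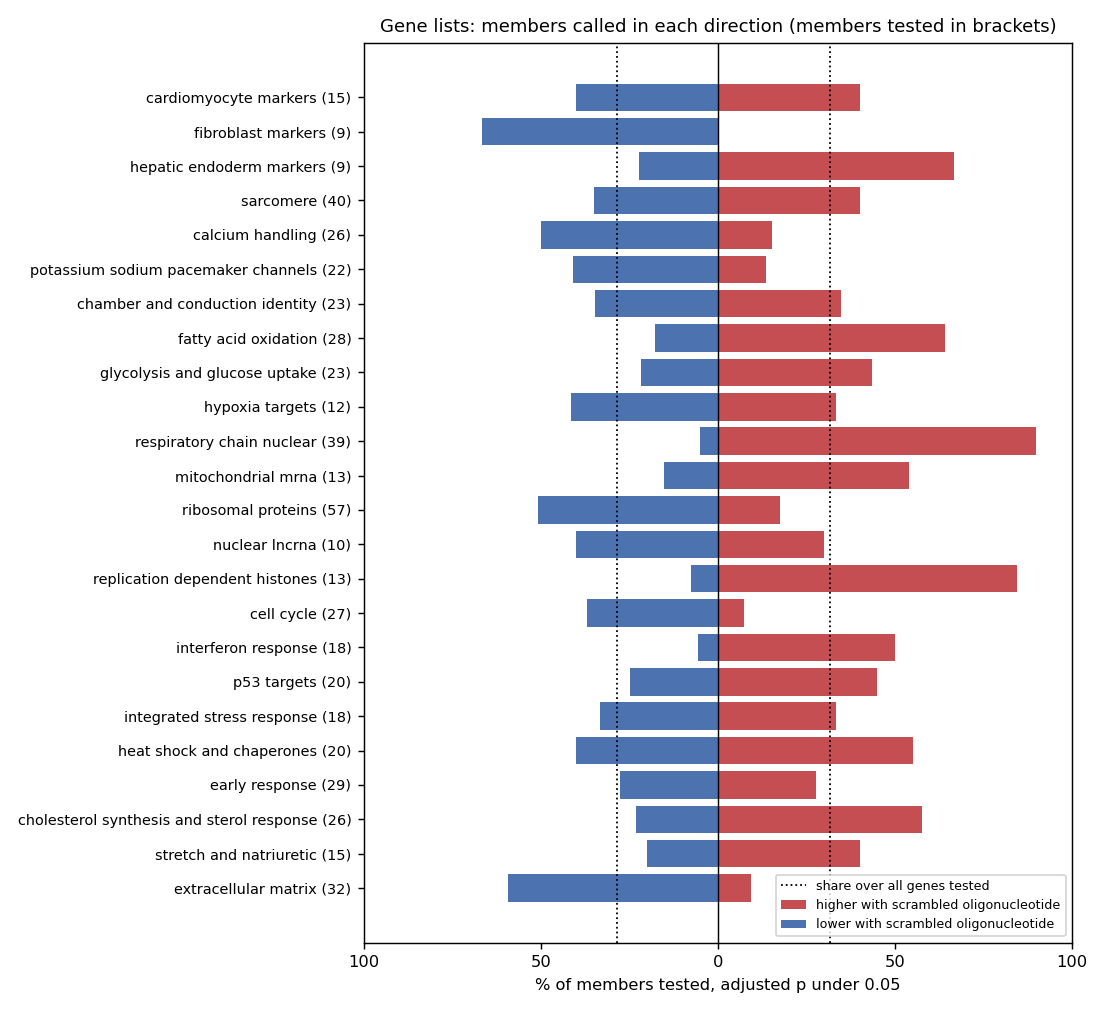
Share of the tested members that were higher (right) or lower (left) with the scrambled oligonucleotide at an adjusted p under 0.05, for each gene list with 9 or more members tested. Dotted lines mark the shares over all genes tested (31.7% higher, 28.5% lower). Nuclear-encoded respiratory chain genes lie furthest to the right and fibroblast markers and extracellular matrix genes furthest to the left.

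Of 40 sarcomere genes tested, 16 were higher and 14 lower, against 31.7% and 28.5% of all genes, with a median log2 fold change of 0.21. With the offsets 15 were higher and 16 lower (median -0.01). ACTA1, the skeletal alpha-actin, measured 12.3, 12.96, 10.2 and 13.1 CPM with the control plasmid and 84.3, 70.2, 97.3 and 98.1 CPM with the scrambled oligonucleotide. All libraries of the groups stayed apart (log2 fold change 2.85, standard error 0.14, adjusted p = 2.25e-07). ACTC1, the cardiac alpha-actin, which took the most counts of all sarcomere genes with the scrambled oligonucleotide, measured 3513, 4714, 3328 and 3986 CPM with the control plasmid and 16810, 15380, 7434 and 7295 CPM with the scrambled oligonucleotide. It was higher in all 4 libraries (log2 fold change 1.59, standard error 0.28, adjusted p = 0.000746), and more so in replicates 1 and 2 (set difference -1.15, adjusted p = 5.92e-05 between the pairs of scrambled oligonucleotide libraries, replicates 3 and 4 relative to 1 and 2). DES, which encodes the intermediate filament desmin, was at 2.92, 2.79, 2.98 and 3.64 CPM with the control plasmid and 23.2, 22.2, 34.3 and 35.3 CPM with the scrambled oligonucleotide. All 4 scrambled oligonucleotide libraries lay above the control plasmid libraries (log2 fold change 3.22, standard error 0.21, adjusted p = 9.31e-07). CRYAB, a small heat shock protein of the Z-disc, was higher at 1.71 (adjusted p = 1.62e-07).

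Other sarcomere genes were lower. FHOD3, a formin that organizes thin filaments and whose exons overlap those of TPGS2 on the other strand, measured 419.9, 404, 403 and 451 CPM with the control plasmid and 54.2, 51.1, 67.6 and 55.5 CPM with the scrambled oligonucleotide. It fell in every scrambled oligonucleotide library (log2 fold change -2.88, standard error 0.11, adjusted p = 4.18e-08) and was at -2.55 with the offsets. NEBL, a nebulin-related protein of the Z-disc, measured 2260, 2799, 3086 and 2724 CPM with the control plasmid and 633, 669, 486 and 512 CPM with the scrambled oligonucleotide, without overlap (log2 fold change -2.24, standard error 0.14, adjusted p = 6.12e-07). TTN, the giant spring protein titin, measured 9314, 5143, 7719 and 7721 CPM with the control plasmid and 2181, 2118, 5072 and 4854 CPM with the scrambled oligonucleotide. Its groups did not overlap, although scrambled oligonucleotide replicates 3 and 4 came close to control plasmid replicate 2 (log2 fold change -1.07, standard error 0.31, adjusted p = 0.0133). MYH7, the slow myosin heavy chain, measured 7012, 6968, 6425 and 7770 CPM with the control plasmid and 3001, 2476, 4448 and 4177 CPM with the scrambled oligonucleotide, and was lower in all 4 (adjusted p = 0.000641), as were LDB3, a Z-disc scaffold, and MYH6, the fast myosin heavy chain, at -1.29 and -0.86 (adjusted p = 1.92e-06 and 0.000647).

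Ratios of paired genes within a library do not depend on its depth, and 12 of 16 pairs had enough reads. NPPA over NPPB, the atrial over the B-type natriuretic peptide, stood at -0.02, -0.03, -0.24 and -0.35 on the log2 scale with the control plasmid and at 2.42, 2.38, 1.97 and 1.79 with the scrambled oligonucleotide. The ratios did not overlap, with means of -0.16 ± 0.16 and 2.14 ± 0.31 (SD, n = 4 each; exact permutation test, 2-sided, p = 0.0286, adjusted p = 0.0571 over the 12 pairs, the smallest adjusted value reached). In CPM, NPPA measured 28.3, 35.2, 25.8 and 26.98 CPM with the control plasmid and 65.1, 66.2, 134 and 132 CPM with the scrambled oligonucleotide, and was higher without overlap (log2 fold change 1.77, standard error 0.26, adjusted p = 0.000217), while NPPB was at -0.42 with all 4 libraries (adjusted p = 0.344), at -1.34 with replicates 1 and 2 alone (adjusted p = 2.70e-07) and at 0.15 with replicates 3 and 4 alone (adjusted p = 0.299). NPPA shares exonic sequence with CLCN6 on the other strand, so its value is uncertain, and with the offsets it was at 0.64 and was no longer called, whereas NPPB was called lower at -1.75 (adjusted p = 0.00239). The ratio of skeletal to cardiac alpha-actin, ACTA1 over ACTC1, was -8.31 ± 0.15 with the control plasmid and -6.97 ± 0.85 with the scrambled oligonucleotide, that of the glucose transporters SLC2A1 over SLC2A4 0.79 ± 0.16 and 2.05 ± 0.81, and that of the hexokinases HK1 over HK2 4.13 ± 0.22 and 5.13 ± 0.27 (SD, n = 4 each). COX6A1 over COX6A2, the ubiquitous over the muscle form of a cytochrome oxidase subunit, was 6.50 ± 0.46 and 4.81 ± 0.51, and MYL4 over MYL3, the atrial over the ventricular essential light chain, -0.19 ± 0.05 and -0.49 ± 0.25 (SD, n = 4 each). Each of these had an exact p of 0.0286, and none passed 0.05 after adjustment. MYL4 over MYL3 was -0.70, -0.72, -0.27 and -0.27 in the scrambled oligonucleotide libraries. Replicates 3 and 4 thus came close to the lowest control plasmid library, at -0.25, and the difference lay mostly in replicates 1 and 2. The ratios were not corrected for length, and with the offsets ACTA1 (exonic length 1495 bases) was at 1.85 and ACTC1 (4602 bases) at 1.69.

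The ratios MYH6 over MYH7, MYL7 over MYL2 and TNNI1 over TNNI3, sarcomere isoforms that are exchanged as heart muscle matures, did not differ beyond the spread between libraries. MYH6 over MYH7, the fast over the slow cardiac myosin heavy chain, stood at -0.89, -0.74, -0.83 and -0.81 with the control plasmid and at -0.12, 0.01, -1.27 and -1.26 with the scrambled oligonucleotide. Replicates 1 and 2 were above and replicates 3 and 4 below every control plasmid library (exact p = 0.629). MYL7 over MYL2, the atrial over the ventricular regulatory light chain, was 7.84, 8.38, 8.27 and 8.11 with the control plasmid and 5.22, 5.33, 8.59 and 8.57 with the scrambled oligonucleotide. Here replicates 1 and 2 fell far below the control plasmid libraries and replicates 3 and 4 lay above them (exact p = 0.429). MYL2, the ventricular light chain itself, measured 15.4, 17.2, 12.7 and 14.9 CPM with the control plasmid and 236, 225, 17.8 and 17.3 CPM with the scrambled oligonucleotide. Its difference rested on replicates 1 and 2: the log2 fold change was 3.97 with these alone and 0.22 with replicates 3 and 4 alone, against 3.04 with all 4 (set difference -3.74, adjusted p = 2.72e-06), and with the offsets it was at 2.02 and was not called. TNNI1 over TNNI3, the slow skeletal over the cardiac troponin I, had means of 5.15 ± 0.05 and 4.94 ± 0.35 (SD, n = 4 each, exact p = 0.4), and both genes were higher with the scrambled oligonucleotide (1.03 and 1.22). In GapmeR replicates 1, 2, 3 and 4, MYL7 over MYL2 was 5.3, 5.1, 8.3 and 8.1. For MYH6 over MYH7 these ratios were 0.6, -0.3, -2.2 and -2.1, and for TNNI1 over TNNI3 4.4, 4.5, 4.5 and 4.7. Relative to exonic length, MYL7 stood at a mean of 2972 CPM per kb with the control plasmid and 5365 with the scrambled oligonucleotide, against 11.1 and 91.1 for MYL2, so the atrial isoform was the more abundant in both groups.

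**Figure D4:**
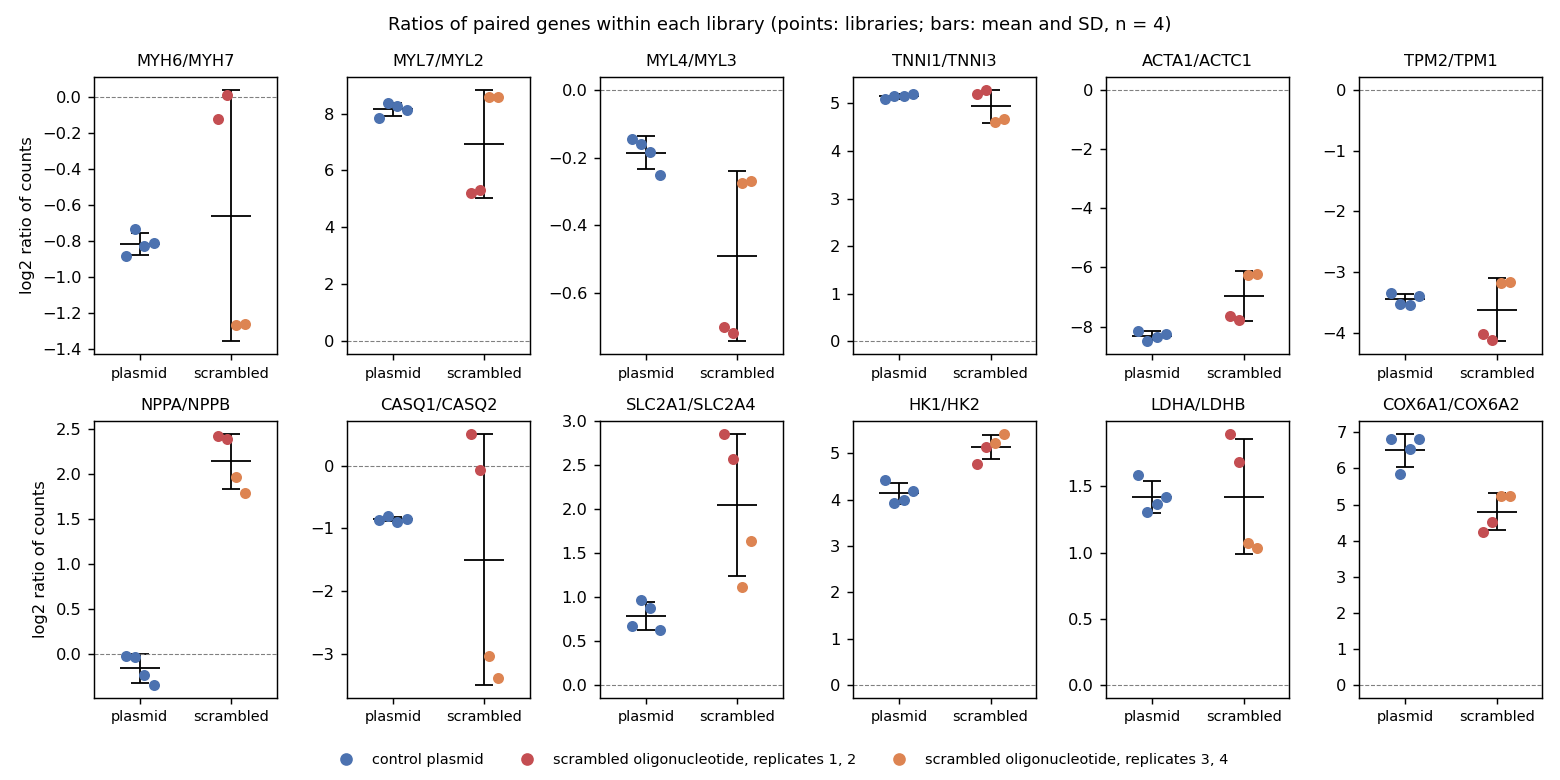
Log2 ratio of counts of 12 pairs of genes in each library, with each point a library and the bars the mean and SD (n = 4 per group). NPPA over NPPB has a mean of -0.16 with the control plasmid and 2.14 with the scrambled oligonucleotide, without overlap, while for MYH6 over MYH7 and MYL7 over MYL2 replicates 1 and 2 and replicates 3 and 4 of the scrambled oligonucleotide lie on either side of the control plasmid libraries.

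Of 23 genes of chamber and conduction identity tested, 8 were higher and 8 lower, shares close to the 31.7% and 28.5% of all genes, with a median of -0.42. With the offsets 3 were higher and 8 lower (median -0.44). TBX20, a repressor and activator of cardiac genes, measured 260.2, 179.5, 233 and 268 CPM with the control plasmid and 57.4, 47.1, 33.3 and 29.99 CPM with the scrambled oligonucleotide. The ranges of the groups were separate (log2 fold change -2.49, standard error 0.22, adjusted p = 5.90e-06). MYOCD, the coactivator myocardin, measured 476, 516, 563 and 541 CPM with the control plasmid and 111, 115, 78.3 and 86.2 CPM with the scrambled oligonucleotide, also without overlap (log2 fold change -2.42, standard error 0.13, adjusted p = 3.53e-07), and MEF2A, a muscle transcription factor, was at -1.32. HEY2 and IRX4, which mark ventricular cardiomyocytes, were called higher at 1.89 and 1.60 (adjusted p = 0.0221 and 0.0153), but with replicates 3 and 4 alone they were at 0.16 and 0.24 and their libraries overlapped with the control plasmid libraries. The call of HEY2 was lost without control plasmid replicate 1, 2 or 3 or scrambled oligonucleotide replicate 2 (log2 fold change 1.56 to 1.86), and that of IRX4 without control plasmid replicate 3 (1.48). Neither was called with limma-voom (1.38 and 1.26, adjusted p = 0.23 and 0.12), with all genes of at least 1 count (1.90 and 1.60, adjusted p = 0.127 and 0.121) or between the treated libraries (0.70 and 0.84), and HEY2 was not called with the offsets (1.48, adjusted p = 0.0615).

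Genes of calcium handling were more often lower than higher. Of 26 tested, 13 were lower and 4 higher, against 28.5% and 31.7% of all genes, with a median log2 fold change of -0.45. With the offsets 12 were lower and 6 higher (median -0.49), and between the treated libraries 17 were lower and 3 higher. The median exonic length of the list was 7534 bases, against 4853 for all genes tested. RYR2, the channel that releases calcium from the sarcoplasmic reticulum, measured 645, 553, 674 and 690.2 CPM with the control plasmid and 94.2, 86.9, 224 and 202 CPM with the scrambled oligonucleotide. Every scrambled oligonucleotide library lay below every control plasmid library (log2 fold change -2.08, standard error 0.30, adjusted p = 0.000189), with replicates 1 and 2 the lowest. ATP2A2, the calcium pump SERCA2 that refills that store, measured 2030, 2353, 2209 and 2316 CPM with the control plasmid and 837, 759.8, 927 and 897 CPM with the scrambled oligonucleotide, without overlap (log2 fold change -1.38, standard error 0.09, adjusted p = 9.73e-07). SLC8A1, the sodium-calcium exchanger, measured 1037, 1160, 1242 and 1194 CPM with the control plasmid and 344, 389, 278 and 291 CPM with the scrambled oligonucleotide, again without overlap (log2 fold change -1.83, standard error 0.12, adjusted p = 8.70e-07).

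Subunits of the L-type calcium channel did not move together. CACNA1C, its pore-forming subunit, was at -1.21 and CACNA2D1, its alpha2delta subunit, at -1.70 (adjusted p = 5.67e-06 and 1.87e-05). With the offsets these were -0.51 and -0.83, and the former no longer passed. CACNB2, its beta2 subunit, measured 108, 114, 127 and 119.6 CPM with the control plasmid and 169.5, 183, 81.1 and 79.7 CPM with the scrambled oligonucleotide. Replicates 1 and 2 lay above and replicates 3 and 4 below the control plasmid libraries (set difference -1.16, adjusted p = 0.000186). The pooled difference was not called (adjusted p = 0.697), but CACNB2 was called higher with the offsets (0.86, adjusted p = 0.0281). It was called lower between the treated libraries (-0.69, adjusted p = 0.0458). CALM2, a calmodulin gene, and FKBP1B, which encodes the calstabin bound to RYR2, were higher at 0.96 and 1.49. PLN, the phospholamban that restrains SERCA2, was at -0.27 with all 4 libraries (adjusted p = 0.534), at 0.32 with replicates 1 and 2 alone (adjusted p = 0.0658) and called lower at -1.18 with replicates 3 and 4 alone (adjusted p = 5.15e-08, set difference -1.48, adjusted p = 0.000437). Between the treated libraries it was called at -0.66 (adjusted p = 0.0255). CASQ2, the cardiac calsequestrin that buffers calcium in the store, measured 17.9, 26.6, 18.5 and 21.8 CPM with the control plasmid and 6.78, 10.6, 100.2 and 111 CPM with the scrambled oligonucleotide. Replicates 1 and 2 lay below and replicates 3 and 4 above the control plasmid libraries (set difference 3.58, adjusted p = 5.76e-05), and the pooled difference was not called (adjusted p = 0.138), except without scrambled oligonucleotide replicate 1 (log2 fold change 1.83, adjusted p = 0.0221).

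Among 22 potassium, sodium and pacemaker channel genes and connexins, 9 were lower and 3 higher, against 28.5% and 31.7% of all genes, with a median of -0.04. With the offsets 7 were lower and 4 higher. HCN4, the main pacemaker channel, measured 249, 215, 224 and 253 CPM with the control plasmid and 65.5, 50.7, 31.6 and 34.4 CPM with the scrambled oligonucleotide. Each group kept to its own range (log2 fold change -2.37, standard error 0.22, adjusted p = 8.08e-06). ATP1B1, the beta subunit of the sodium pump, was lower at -2.08 (adjusted p = 2.39e-06). GJA1, the gap junction protein connexin 43, measured 98.5, 103, 112 and 97.8 CPM with the control plasmid and 51.9, 46.1, 22.3 and 23.5 CPM with the scrambled oligonucleotide (log2 fold change -1.51, standard error 0.26, adjusted p = 0.000658).

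Nuclear-encoded genes of the respiratory chain were higher almost throughout. Of 39 tested, 35 were higher and 2 lower, against 31.7% and 28.5% of all genes. The median log2 fold change was 1.21, and 27 of those higher were past 2-fold. With the offsets 34 were higher and 1 lower (median 1.02), and between the treated libraries 36 were higher and 1 lower. The median exonic length of the list was 3066 bases, against 4853 for all genes tested. NDUFB8, a complex I subunit, measured 10.4, 10.2, 9.76 and 9.68 CPM with the control plasmid and 61.8, 57.7, 52.4 and 57.1 CPM with the scrambled oligonucleotide. The groups lay far apart (log2 fold change 2.52, standard error 0.11, adjusted p = 8.96e-08). COX5A, a subunit of cytochrome oxidase, measured 167, 227, 192 and 165 CPM with the control plasmid and 876, 856, 843 and 812 CPM with the scrambled oligonucleotide, without overlap (log2 fold change 2.17, standard error 0.11, adjusted p = 2.43e-07), and CYC1, cytochrome c1 of complex III, measured 177, 179.8, 140.0 and 170.4 CPM with the control plasmid and 667, 634, 650.2 and 605 CPM with the scrambled oligonucleotide (log2 fold change 1.94, standard error 0.10, adjusted p = 2.09e-07). COX6A2, the subunit found in heart and skeletal muscle, measured 1.23, 2.37, 1.30 and 1.16 CPM with the control plasmid and 27.7, 24.5, 14.2 and 14.1 CPM with the scrambled oligonucleotide, with all 4 scrambled oligonucleotide libraries higher (log2 fold change 3.71, standard error 0.33, adjusted p = 6.17e-06). ATP5F1B, the beta subunit of ATP synthase and among the 10 most abundant genes with the scrambled oligonucleotide, was at 1.21. The exceptions were NDUFS1, a complex I subunit, and UQCRB, a complex III subunit, at -0.38 and -0.46, which turned to 0.46 and 0.41 with the offsets. UQCRB also lost its call without control plasmid replicate 2 or 3 or scrambled oligonucleotide replicate 1, 3 or 4 (-0.45 to -0.35).

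Mitochondrial messenger RNAs, which encode the other subunits of the same complexes, were mixed. Of 13, 7 were higher and 2 lower, against 31.7% and 28.5% of all genes, with a median of 0.36. With the offsets 0 were higher and 8 lower. MT-CYB, cytochrome b, measured 3280, 2727, 3553 and 3467 CPM with the control plasmid and 9008, 7391, 4978 and 5094 CPM with the scrambled oligonucleotide, without overlap (log2 fold change 1.02, standard error 0.19, adjusted p = 0.000984), and was at 0.07 with the offsets. MT-ND3, a complex I subunit, measured 822, 1254, 1234 and 927 CPM with the control plasmid and 389.9, 402, 258 and 293 CPM with the scrambled oligonucleotide, and fell without overlap (log2 fold change -1.66, standard error 0.18, adjusted p = 2.94e-05). MT-ND4L, which overlaps MT-ND4 and is uncertain, was at -1.78. MT-CO1, the most abundant transcript with the control plasmid, was at 0.75 (adjusted p = 0.0484), with overlapping groups and a value of -0.05 with the offsets, and it lost its call without any of control plasmid replicates 1 to 4 or scrambled oligonucleotide replicates 1 and 2 (0.49 to 0.75).

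Genes of fatty acid oxidation were also more often higher. Of 28 tested, 18 were higher and 5 lower, against 31.7% and 28.5% of all genes, with a median of 0.61. The counts were the same with the offsets (median 0.59). Between the treated libraries 12 were higher and 7 lower. Among the genes that were higher, ACADVL, the very long-chain acyl-CoA dehydrogenase, measured 69.8, 70.3, 53.3 and 66.2 CPM with the control plasmid and 249.6, 225, 216 and 194 CPM with the scrambled oligonucleotide (log2 fold change 1.77, standard error 0.12, adjusted p = 8.81e-07). ECI1, an enoyl-CoA isomerase, and ETFB, a subunit of the electron transfer flavoprotein, were at 1.78 and 1.97. FABP3, a fatty acid binding protein, and SLC25A20, the carnitine carrier of the mitochondrial membrane, were higher at 0.91 and 0.88, and neither was called with the offsets (-0.17 and 0.14). Among the genes that were lower, PPARGC1A, the coactivator PGC-1alpha, measured 177, 146, 189 and 177 CPM with the control plasmid and 69.9, 69.3, 72.1 and 78.4 CPM with the scrambled oligonucleotide (log2 fold change -1.25, standard error 0.10, adjusted p = 2.29e-06), PPARA, a nuclear receptor that switches on the pathway, was at -1.40, and ESRRG, an estrogen-related receptor, at -0.61, which turned to 0.31 with the offsets. CPT1A, the liver form of the carnitine palmitoyltransferase that admits fatty acids into mitochondria, measured 81.6, 63.4, 66.95 and 75.1 CPM with the control plasmid and 32.4, 25.7, 20.2 and 22.6 CPM with the scrambled oligonucleotide, without overlap (log2 fold change -1.51, standard error 0.16, adjusted p = 1.51e-05).

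Of 23 genes of glycolysis and glucose uptake, 10 were higher and 5 lower, against 31.7% and 28.5% of all genes, with a median of 0.22. With the offsets 12 were higher and 5 lower. LDHA, a lactate dehydrogenase subunit, measured 241, 266, 248 and 244 CPM with the control plasmid and 794, 819.8, 394 and 380.4 CPM with the scrambled oligonucleotide. It was higher throughout (log2 fold change 1.26, standard error 0.25, adjusted p = 0.00152), with replicates 1 and 2 the highest (set difference -1.08, adjusted p = 8.59e-05), and LDHB, the other subunit, was at 1.17. ENO3, the muscle enolase, and GAPDH were at 1.60 and 0.98, whereas PKM, a pyruvate kinase, and PDK1, which inhibits pyruvate dehydrogenase, were lower at -0.66 and -0.73, and at -0.27 and 0.22 with the offsets.

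Cytoplasmic ribosomal protein genes were more often lower than higher, although their exonic length (median 3271 bases) was below that of all genes tested. Of 57 tested, 29 were lower and 10 higher, against 28.5% and 31.7% of all genes, with a median of -0.46. With the offsets 42 were lower and 7 higher (median -0.74). RPL6, a protein of the large subunit whose exons overlap PTPN11, measured 625, 741, 664 and 649 CPM with the control plasmid and 154, 166, 162 and 154 CPM with the scrambled oligonucleotide. Between the groups there was no overlap (log2 fold change -2.07, standard error 0.08, adjusted p = 7.01e-08). RPS23, of the small subunit, measured 319, 475, 399.8 and 349.8 CPM with the control plasmid and 90.5, 109, 91.2 and 91.6 CPM with the scrambled oligonucleotide, without overlap (log2 fold change -2.01, standard error 0.13, adjusted p = 8.66e-07). RPL38 and RPS15 were among the 10 that were higher, at 1.04 and 0.93, and RPS15 was at 0.20 with the offsets. EEF1A1, the elongation factor that delivers transfer RNA to the ribosome, measured 4665, 5712, 4957 and 5102 CPM with the control plasmid and 1626, 1699, 2093 and 1956 CPM with the scrambled oligonucleotide (log2 fold change -1.47, standard error 0.11, adjusted p = 1.69e-06).

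Interferon-stimulated genes were more often higher than lower with the scrambled oligonucleotide, and the counts differed between the pairs of scrambled oligonucleotide libraries. Of 40 genes listed 18 had enough reads to be tested. Of these 9 were higher and 1 lower, against 31.7% and 28.5% of all genes, with a median log2 fold change of 1.44. With the offsets 7 were higher and 0 lower. A gene can pass the filter on low counts through the group where it is high, so these counts are not those of all members. With replicates 1 and 2 alone 16 of 20 tested were higher and 1 lower, against 5753 and 5390 of 15422 genes in that fit. With replicates 3 and 4 alone 7 of 16 were higher and 4 lower, against 5970 and 5439 of 16057 genes. Among the 14 listed genes tested in all of these fits, 10 were higher and 1 lower with replicates 1 and 2, and 5 were higher and 4 lower with replicates 3 and 4. Between the treated libraries 6 were higher and 2 lower. Many interferon-stimulated genes carry in their promoter an interferon-stimulated response element, the site of the transcription factor complex ISGF3. The stretches of promoter with such letters in ISG15, IFI6 and BST2, the interferon-stimulated genes described next, are shown for GRCh38.p14 from RefSeq, 5′ to 3′ on the strand of the gene, with capitals where the motif matches, that is GAAA, any 2 bases (NN) and GAAA again.
ISG15, chr1:1013364-1013419 (plus strand): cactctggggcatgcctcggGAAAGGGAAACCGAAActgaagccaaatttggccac
IFI6, chr1:27672256-27672368 (minus strand): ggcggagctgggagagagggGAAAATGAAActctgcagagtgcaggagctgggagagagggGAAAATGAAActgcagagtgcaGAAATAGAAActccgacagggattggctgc
BST2, chr19:17405725-17405780 (minus strand): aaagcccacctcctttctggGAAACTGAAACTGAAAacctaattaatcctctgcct
The motif was searched on both strands, overlapping matches included, from 250 bases before to 50 bases after each start. It was found in 1248 of 34943 promoters (3.57%), in 433 of 11302 genes tested that have a promoter in the table (3.83%), and in 9 of the 13 interferon-stimulated genes tested that have one. Of the 6 of these that were called higher, 4 held it. A match describes the letters and not the binding of a factor.

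ISG15, a ubiquitin-like protein with 2 overlapping matches, measured 14.2, 13.9, 8.28 and 13.7 CPM with the control plasmid and 124, 156, 51.3 and 48.2 CPM with the scrambled oligonucleotide. The groups did not overlap (log2 fold change 2.91, standard error 0.40, adjusted p = 0.000143), and replicates 1 and 2 were above replicates 3 and 4 (set difference -1.52, adjusted p = 0.000281). Exons of ISG15 overlap an unnamed antisense gene, which makes its value uncertain. IFI6, an inhibitor of cell death at the mitochondrion with 3 matches, measured 3.58, 3.35, 1.95 and 2.81 CPM with the control plasmid and 73.3, 83.7, 21.7 and 30.03 CPM with the scrambled oligonucleotide. All 4 scrambled oligonucleotide libraries were higher (log2 fold change 4.15, standard error 0.47, adjusted p = 3.88e-05), again with replicates 1 and 2 the highest (set difference -1.63, adjusted p = 0.00063). BST2, the membrane protein tetherin with 2 matches, measured 1.13, 0.627, 1.02 and 1.74 CPM with the control plasmid and 22.6, 29.6, 1.38 and 1.78 CPM with the scrambled oligonucleotide. Only replicates 1 and 2 lay apart: BST2 was called with all 4 libraries (log2 fold change 3.62, standard error 1.00, adjusted p = 0.0103), and with replicates 3 and 4 alone it was at 0.48. BST2 was not called with limma-voom (2.54, adjusted p = 0.257), with all genes of at least 1 count (3.635, adjusted p = 0.0903) or with the offsets (2.48, adjusted p = 0.0592). IRF7, a transcription factor that amplifies the response, IFI27, a relative of IFI6, and STING1, the adaptor of cytosolic DNA sensing, were higher at 1.98, 2.67 and 1.65. IFIT1, whose promoter holds the motif, was not called with all 4 libraries, at 0.39 (adjusted p = 0.312). It was called higher with replicates 1 and 2 alone (0.935, adjusted p = 9.04e-05) and lower with replicates 3 and 4 alone (-0.383, adjusted p = 0.00956). EIF2AK2, the kinase PKR that binds double-stranded RNA, was the gene that was lower with all 4 libraries, at -1.02, and moved to -0.10 with the offsets. IFNB1, MX1 and CXCL10 did not have enough reads to be tested with all 4 libraries.

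**Figure D5:**
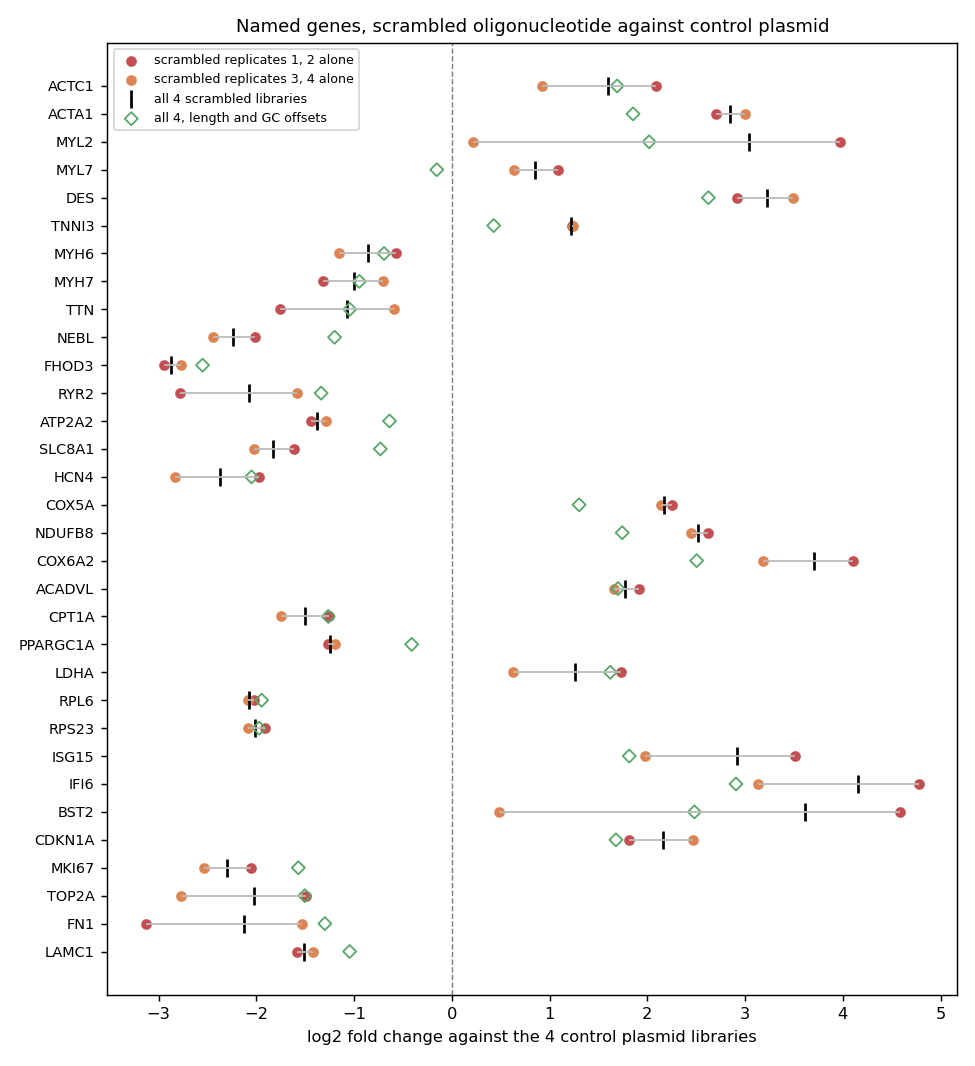
Log2 fold change of named genes against the 4 control plasmid libraries, with scrambled oligonucleotide replicates 1 and 2 alone, replicates 3 and 4 alone, all 4, and all 4 with offsets for exonic length and GC content. MYL2 and BST2 show the widest gap between the pairs of libraries, and MYL7 crosses 0 with the offsets.

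Stress response genes were called in both directions. Of 20 p53 target genes 9 were higher and 5 lower (median 0.10), against 31.7% and 28.5% of all genes, and 7 were higher and 4 lower with the offsets. CDKN1A, the cell cycle inhibitor p21, measured 15.4, 12.5, 13.5 and 15.2 CPM with the control plasmid and 54.2, 42.2, 79.4 and 77.1 CPM with the scrambled oligonucleotide. No library of one group reached the range of the other (log2 fold change 2.16, standard error 0.21, adjusted p = 9.20e-06). GDF15, a secreted stress signal, was at 4.12, and PHLDA3, which restrains AKT, at 2.04. GDF15 had few reads, 6, 1, 2 and 1 with the control plasmid and 47, 44, 190 and 208 with the scrambled oligonucleotide. Its set difference was 2.1 (adjusted p = 0.00486). MDM2, which degrades p53, and the RNA-binding protein gene ZMAT3 were lower at -1.22 and -1.35. In the integrated stress response, 6 of 18 genes were higher and 6 lower (median -0.11), close to the shares over all genes, and 4 were higher and 6 lower with the offsets. DDIT3 and TRIB3, a transcription factor and a pseudokinase of the late response, were higher at 1.64 and 1.97, and the amino acid genes ASNS, a synthetase of asparagine, and SLC7A11, the cystine transporter, were lower at -2.92 and -2.53. Of 20 heat shock and chaperone genes 11 were higher and 8 lower, against the same 31.7% and 28.5%, and with the offsets 7 were higher and 7 lower. HSP90AA1, the inducible cytosolic HSP90, measured 2047, 2500, 2335 and 2140 CPM with the control plasmid and 763, 928, 962 and 935 CPM with the scrambled oligonucleotide (log2 fold change -1.33, standard error 0.10, adjusted p = 2.25e-06), and SDF2L1, of the endoplasmic reticulum, was at 2.11.

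Cholesterol synthesis genes were more often higher, with 15 higher and 6 lower of 26 (median 0.52), against 31.7% and 28.5% of all genes. With the offsets 14 were higher and 4 lower. Between the treated libraries 9 were higher and 5 lower. EBP, a sterol isomerase, measured 8.58, 11.8, 8.65 and 8.03 CPM with the control plasmid and 67.5, 65.9, 61.97 and 58.1 CPM with the scrambled oligonucleotide. The groups lay apart (log2 fold change 2.77, standard error 0.14, adjusted p = 2.47e-07). HMGCS1, the HMG-CoA synthase of the pathway, measured instead 385, 610.5, 545 and 474 CPM with the control plasmid and 167, 158, 144 and 187 CPM with the scrambled oligonucleotide (log2 fold change -1.62, standard error 0.14, adjusted p = 5.40e-06), and SREBF2, the transcription factor that drives the pathway, was at -0.85. ANKRD1, a stretch-responsive protein of the Z-disc, measured 724, 941, 916 and 767 CPM with the control plasmid and 162, 179, 231 and 228 CPM with the scrambled oligonucleotide, and was lower in every scrambled oligonucleotide library (log2 fold change -2.07, standard error 0.14, adjusted p = 1.14e-06).

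Cell cycle genes differed between the pairs of scrambled oligonucleotide libraries. Of 27 tested, 10 were lower and 2 higher (median -0.26), against 28.5% and 31.7% of all genes, and with the offsets 12 were lower and 0 higher. With replicates 1 and 2 alone 11 were higher and 9 lower (median 0.22), against 5753 and 5390 of 15422 genes in that fit. With replicates 3 and 4 alone 0 were higher and 22 lower (median -1.14), against 5970 and 5439 of 16057 genes. TOP2A, the topoisomerase of dividing cells, measured 204, 243, 236 and 231 CPM with the control plasmid and 73.9, 84.2, 33.3 and 33.6 CPM with the scrambled oligonucleotide. It was lower throughout (log2 fold change -2.02, standard error 0.30, adjusted p = 0.000214), and lowest in replicates 3 and 4 (set difference -1.27, adjusted p = 0.00043). MKI67, the proliferation marker Ki-67, measured 86.2, 80.4, 87.2 and 83.8 CPM with the control plasmid and 23.1, 16.3, 13.9 and 15.1 CPM with the scrambled oligonucleotide, also without overlap (log2 fold change -2.30, standard error 0.16, adjusted p = 1.07e-06). CENPF, a kinetochore protein, was at -2.35 and at -1.49 with the offsets.

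Extracellular matrix genes and fibroblast markers were more often lower than higher. Of 32 matrix genes 19 were lower and 3 higher, against 28.5% and 31.7% of all genes, with a median of -1.11. With the offsets 14 were lower and 6 higher (median -0.55). The median exonic length of the list was 8808 bases. FN1, fibronectin, measured 404, 383, 389.6 and 444 CPM with the control plasmid and 48.98, 40.8, 155 and 126 CPM with the scrambled oligonucleotide. All libraries of the groups stayed apart (log2 fold change -2.13, standard error 0.39, adjusted p = 0.000878), and replicates 1 and 2 were the lowest (set difference 1.62, adjusted p = 0.000281). LAMC1, the gamma1 chain of laminin in the basement membrane, measured 452, 465, 504 and 526 CPM with the control plasmid and 168, 148, 178 and 187 CPM with the scrambled oligonucleotide (log2 fold change -1.52, standard error 0.10, adjusted p = 7.38e-07). HSPG2, the basement membrane proteoglycan perlecan, was at -2.35. TIMP1 and TIMP3, inhibitors of matrix metalloproteinases, were higher at 1.93 and 1.02. Of 9 fibroblast markers tested 6 were lower and 0 higher (median -0.95), against 28.5% and 31.7% of all genes, and 3 were lower with the offsets. Their summed level was 676 to 748 CPM with the control plasmid and 238 to 270 CPM with the scrambled oligonucleotide, with DCN and FAP below 1 CPM in all 8 libraries. POSTN, periostin of activated fibroblasts, measured 13.6, 9.97, 13.8 and 13.4 CPM with the control plasmid and 0.0648, 0.664, 2.81 and 2.55 CPM with the scrambled oligonucleotide, and fell without overlap (log2 fold change -3.05, standard error 0.71, adjusted p = 0.00394). The part of the fibroblast markers in the level of the matrix genes was not tested.

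Markers of other cells were mixed. Of 9 hepatic and endodermal genes tested 6 were higher and 2 lower (median 1.36), against 31.7% and 28.5% of all genes. With the offsets 4 were higher and 1 lower, and between the treated libraries 2 were higher and 2 lower (median 0.07). APOA1, an apolipoprotein, was at 1.88 and AFP, alpha-fetoprotein, at -1.39, and FOXA2 and SOX17 were below 1 CPM in all 8 libraries. Of 7 smooth muscle markers 2 were higher and 3 lower, against 31.7% and 28.5% of all genes, and 1 was higher and 3 lower with the offsets. Replicates 1 and 2 alone gave 2 higher and 5 lower (median -1.31), against 5753 and 5390 of 15422 genes in that fit. Replicates 3 and 4 alone gave 4 higher and 3 lower (median 0.55), against 5970 and 5439 of 16057 genes. The treated libraries gave 0 higher and 2 lower. KRT19, a keratin listed for epicardium, measured 60.98, 53.4, 45.2 and 51.6 CPM with the control plasmid and 531, 496, 229 and 209 CPM with the scrambled oligonucleotide (log2 fold change 2.79, standard error 0.31, adjusted p = 3.35e-05), while WT1, a defining factor of that layer, was at 0.16 and was not called (adjusted p = 0.864). NES, the intermediate filament nestin listed for neural cells, was at -2.71, with ELAVL3 and SOX1 of neurons and their precursors below 1 CPM. Of 4 neural markers tested NES was the member called. With replicates 3 and 4 alone 3 of 6 were higher and 1 lower, against 5970 and 5439 of 16057 genes. The filter was run anew in that fit, and a gene can pass it through the libraries where it is high. Among the 3 members tested with all 4 libraries and with each pair, 2 were higher and 1 lower with replicates 3 and 4.

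The protein-coding genes with the largest differences, after the copies of MT-RNR2 and H4C3, included TPGS1, of the tubulin polyglutamylase complex, at 4.63, RRAD, a small GTPase that restrains calcium channels, and C4orf48, which encodes a short secreted peptide, at 4.03. RRAD measured 4.995, 6.34, 4.93 and 6.04 CPM with the control plasmid and 188, 164, 55.01 and 54.6 CPM with the scrambled oligonucleotide. All 4 scrambled oligonucleotide libraries were higher, and replicates 1 and 2 were the highest (log2 fold change 4.36, standard error 0.46, adjusted p = 2.36e-05). Among those lower, RAB12, a small GTPase of membrane traffic with exons that overlap an antisense gene, measured 122, 138, 142 and 113 CPM with the control plasmid and 2.04, 2.05, 2.12 and 2.69 CPM with the scrambled oligonucleotide. The groups lay far apart (log2 fold change -5.85, standard error 0.14, adjusted p = 4.08e-09), and the log2 fold change was -5.78 between the treated libraries. ZBTB12, a zinc finger gene whose exons overlap C2, had 109, 152, 110 and 148 reads with the control plasmid and 3, 0, 0 and 0 with the scrambled oligonucleotide. NACC1, a transcriptional corepressor, measured 52.8, 45.2, 40.9 and 46.8 CPM with the control plasmid and 2.04, 0.815, 0.798 and 0.732 CPM with the scrambled oligonucleotide (log2 fold change -5.40, standard error 0.32, adjusted p = 6.31e-07). MMP14, a membrane-bound metalloproteinase, was at -4.99. FBXL19, MTSS2, AMER1, CMIP and PRR12 were also among the 10 that fell the most, with log2 fold changes from -5.41 to -4.74, and all of those named were also lower between the treated libraries. With the offsets their log2 fold changes ran from -9.30 for ZBTB12 to -4.36 for CMIP. Exons of MTRNR2L1, MTRNR2L8, TPGS1, ZBTB12, RAB12, FBXL19, NACC1, MTSS2, PRR12, TTN, MYH7, EEF1A1, ACTC1, TNNI1, NPPA, TNNI3, LDHB, COX6A2, TNNT2, TBX5, MYOCD, WT1, APOA1, NEBL, FHOD3, CRYAB, DES, CACNA1C, CACNB2, SLC8A1, CALM2, FKBP1B, ATP1B1, MEF2A, ACADVL, ETFB, GAPDH, ENO3, PDK1, NDUFB8, NDUFS1, UQCRB, MT-ND4L, RPL6, RPL38, RPS23, RN7SL1, MALAT1, TUG1, ISG15, EIF2AK2, CDKN1A, MDM2, PHLDA3, DDIT3, ASNS, SLC7A11, HSP90AA1, HMGCS1, SREBF2 and HSPG2 overlap those of another annotated gene, and since the counting is named as unstranded these values are uncertain.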

How the data were processed

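RNA-Seq libraries of hiPSC-CMs were grouped by their labels. The authors aligned paired reads to the human genome with the Gencode v38 annotation using STAR 2.7.3a and deposited raw counts per gene symbol for 59385 symbols, with no normalization and, by the name of the table, unstranded counting with featureCounts. All 16 columns belonged to the study and 0 columns were left out. No cell, replicate or gene was pooled, and every pair of replicates differed by more than sampling noise (chi-square per degree of freedom 2.94 to 94.5).

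Genes were tested with edgeR 4.0.16 (R 4.3.3) by its quasi-likelihood F-test on the deposited counts, with TMM scaling, robust dispersion and filterByExpr, and adjusted over all genes by Benjamini-Hochberg; all adjusted p-values for genes come from it. CPM were scaled to the TMM-adjusted library total. Shares and log2 ratios (0.5 added to each count) were compared by 2-sided exact permutation tests, whose smallest p is 0.0286. Length, GC content, position and overlaps came from GENCODE 29 (GRCh38), which annotated 91.8% of the genes tested, and promoters from RefSeq GRCh38.p14. The code was tested on simulated counts.

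Named genes were LINC00881, the 10 protein-coding genes higher and 10 lower with the largest log2 fold change (adjusted p under 0.05, at least 10 CPM in the higher group, no overlap), members of the lists and pairs, and the 10 genes with the largest share of counts in either group. Some genes that the rule names are not reported here. The rule, the members and the lists were chosen with earlier results of these data known. Alternatives were DESeq2 1.42.0, limma-voom (limma 3.58.1), other size factors and filters, protein-coding genes alone, no mitochondrial genes, the replicate block, each library left out, each pair of scrambled oligonucleotide libraries alone, the treated libraries, all 16 libraries in a single fit, thinned counts, offsets for exonic length and GC content (each a spline of 5 degrees) and a test against a 1.5-fold change. Same-numbered libraries did not deviate together (correlations from -0.048 to 0.101), so the numbers were not taken as pairs. For the lists that follow, the shares over all genes tested were 31.7% higher and 28.5% lower. The other lists examined were hypoxia targets (4 higher and 5 lower of 12), early response genes (8 and 8 of 29), stretch and natriuretic genes (6 and 3 of 15), nuclear long noncoding RNA (3 and 4 of 10), small nuclear and polymerase III RNA (2 and 0 of 4), endothelial (0 and 1 of 2), epicardial (1 and 1 of 6), pluripotency (0 and 1 of 5), neural (0 and 1 of 4) and skeletal muscle markers (1 and 0 of 2).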

Additional observations from a re-analysis of the deposited data

Results flagged for a closer look

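In 12 of 324 sets of 4 libraries checked, the highest or lowest library stood apart from the other 3 by more than Dixon's 95% critical value, a gap that chance gives in about 1 in 20 sets. With the control plasmid, replicate 2 was apart for COX6A2 at 2.37 CPM, for EBP at 11.8 CPM and for POSTN at 9.97 CPM, replicate 3 for ISG15 at 8.28 CPM, and replicate 1 for MTRNR2L6 at 0.0943 CPM, where the other 3 libraries had 0 reads. With the scrambled oligonucleotide, replicate 1 was apart for HSP90AA1 at 763 CPM, NACC1 at 2.04 CPM and ZBTB12 at 0.0972 CPM, replicate 2 for CALM2 at 1070 CPM and RPS23 at 109 CPM, replicate 3 for ESRRG at 124 CPM, and replicate 4 for RAB12 at 2.69 CPM.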

How the results depend on the processing

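The counts of genes higher (5150) and lower (4630) stayed within 1.5 times of these values under the other settings tried, except against a 1.5-fold change (3108 and 2884), and genes higher past 2-fold numbered 1989 in place of 2998 when a gene had to average 100 counts or more. With each library left out in turn, 4633 to 5083 genes were higher and 4364 to 4475 lower, and with the replicate number as a block (replicate block) 4747 and 4618, although the numbers do not pair the libraries; BST2, HEY2 and MT-CO1 lost their calls under the block. Without mitochondrial genes in the total, the long noncoding RNA share was higher with the scrambled oligonucleotide by 0.0914 percentage points (exact p = 0.0286). Between the treated libraries, mitochondrial messenger RNA (1.40 percentage points), the number of genes at 1 CPM or more (284 more) and the log2 ratios MYL7 over MYL2 (-1.84) and TNNI1 over TNNI3 (-0.92) passed the exact test, MYH6 over MYH7 (-0.51) and CASQ1 over CASQ2 (0.52) had the opposite sign, H2BC5 was at 0.27, CACNB2 at -0.69, and LINC00881, which the treatments alter, at -4.27. With scrambled oligonucleotide replicates 3 and 4 alone, LINC00881 was at -0.76 (adjusted p = 0.000921), CACNB2 at -0.55, TBX5 at -0.42 and IFIT1 at -0.38, and with replicates 1 and 2 alone CASQ2 was at -1.25. With the offsets LINC00881 was at -0.88 (adjusted p = 0.0321), FABP3 at -0.17, MT-CO1 at -0.053, MYL7 at -0.15, ESRRG at 0.31, PDK1 at 0.22, NDUFS1 at 0.46 and UQCRB at 0.41. The cause of these changes was not tested. Control plasmid libraries had 9833533 to 13493729 counts each, which limits genes of few reads, and the groups cannot be told apart from their experiments.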
